A study of Mus musculus with 3 samples.

Results

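The matrix proteases and their inhibitors were taken as the protein-coding genes whose symbols mark them as matrix metalloproteinases (Mmp), tissue inhibitors of metalloproteinases (Timp), membrane-bound disintegrin metalloproteinases (Adam) or their secreted relatives with thrombospondin repeats (Adamts and the Adamts-like Adamtsl genes). The rule took 83 of 35562 genes, of which 21856 are protein-coding. The members were 22 Mmp, 4 Timp, 33 Adam, 19 Adamts and 5 Adamtsl genes. Mmp1a is annotated as a polymorphic pseudogene and was therefore not a member.

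These enzymes cut proteins outside the cell or at its surface, and most of them hold a zinc ion in the active site. They are made as inactive precursors and are switched on when the prodomain is removed, in many cases by furin-like convertases. Timp proteins plug the active site of the enzymes, and Timp2 also takes part in the activation of Mmp2 by the membrane-bound Mmp14. In skeletal muscle these families are known for remodelling the basement membrane around satellite cells, for releasing growth factor and Notch signals from cell surfaces and for processing collagen.

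The RNA came from 3 myoblast lines, numbered 66, 67 and 72, which were derived from satellite cells of intraspecies mouse chimeras and purified by FACS. All lines carried the genotype Dmdmdx; Pax7-nGFP, in which the mdx allele of dystrophin had been edited with CRISPR/Cas9 and a nuclear GFP is driven from Pax7. The donor iPSCs had been reprogrammed with the STEMCCA cassette and edited as clones, of which the study checked the edit in 1, and the host blastocysts carried Pax7Cre/ERT2; Rosa26lsl-DTA, alleles that remove host Pax7+ cells after tamoxifen. Which line came from a tamoxifen-injected chimera is not given in the labels, and neither are sex and age for each line. Libraries of Pax7-nGFP myoblasts and of MEFs were not analysed here, so the 3 lines form 1 group and every value describes that group (n = 3). An exact sign-flip test over 3 lines cannot give a p below 0.25, so no p-value is printed and differences are read against the spread between lines.

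The libraries held 73274315, 66972426 and 70272367 estimated counts, in the order 66, 67 and 72 in which all values of the lines are given. Levels are given in TPM, in which counts are corrected for transcript length and scaled to the same total in each library, and which were summed per gene, so that genes can be compared with each other. The 6 myoblast markers checked (Pax7, Myf5, Myod1, Des, Cdh15 and Itga7) were all above 10 TPM in the mean. None of 6 fibroblast markers reached 1 TPM, Lum and Dpt were at 0, and their sum was 1.20, 0.629 and 0.717 TPM in lines 66, 67 and 72. None of 6 endothelial markers reached 1 TPM. Of 6 immune markers, Laptm5 and Cd68 passed 1 TPM, Adgre1 was at 0, and the sum was 29.5, 4.90 and 15.5 TPM, most of it from Laptm5 in lines 66 and 72 and from Cd68 in line 67.

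The action of the inhibitors and of the proteases rests on a few residues, whose codons are shown first because they let the members be compared at the site where inhibitor and enzyme meet. A Timp begins, once its signal peptide is removed, with a cysteine whose amino group reaches the zinc ion of the enzyme. The first 36 coding bases of the mature proteins are printed from GENCODE M21 (GRCm38), with the codons of the first 2 cysteines in capitals.
Timp1: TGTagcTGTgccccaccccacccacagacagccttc
Timp2: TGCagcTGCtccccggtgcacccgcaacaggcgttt
Timp3: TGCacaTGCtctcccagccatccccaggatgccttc
Timp4: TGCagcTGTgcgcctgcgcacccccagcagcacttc
These stretches lie at chrX:20871111-20871146 for Timp1 (exon 2, plus strand), chr11:118354977-118355012 for Timp2 (exon 1, minus strand), chr10:86300923-86300958 for Timp3 (exon 1, plus strand) and chr6:115251656-115251691 for Timp4 (exon 1, minus strand). The stretches were located by a search pattern that requires both cysteines, so all 4 hold both codons by construction. Over the mature proteins, Timp2 and Timp4 were the most alike, with 50.3% of 193 aligned residues identical, and Timp1 and Timp3 the least, with 40.5% of 173.

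In the proteases, 3 histidines of the motif HEXXHXXGXXH hold the zinc ion. The 33 coding bases of this stretch are printed for members on which the results turn, with the codons at the 3 histidine positions in capitals.
Mmp14: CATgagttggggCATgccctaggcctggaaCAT
Mmp2: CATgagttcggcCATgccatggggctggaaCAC
Adam9: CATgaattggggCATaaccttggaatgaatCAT
Adam10: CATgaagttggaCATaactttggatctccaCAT
Adam17: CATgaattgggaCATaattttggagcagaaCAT
Adam12: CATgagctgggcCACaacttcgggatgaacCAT
Adamts14: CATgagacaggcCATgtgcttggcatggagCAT
Adamts4: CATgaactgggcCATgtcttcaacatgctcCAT
Adamts5: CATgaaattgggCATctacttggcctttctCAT
Adam23: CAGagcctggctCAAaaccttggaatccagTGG
The first 9 were located by a search for the motif, with or without its glycine, and so hold all 3 histidine codons. The stretch of Adam23, found by alignment to Adam9, holds none of them and keeps 1 of the 5 named motif residues, the glycine. Adamts4 keeps 4 of 5 and lacks the glycine codon. The motif was found in 22 of 22 Mmp members and in 20 of 33 Adam members. In Adamts, 13 of 19 members held it, and all 19 did when the glycine was not required. None of the 5 Adamtsl members, which are built like Adamts proteins without the protease domain, held either form. Among members averaging at least 1 TPM, the codons lay within 1 exon in 7 of 7 Mmp genes, and this was exon 5 in 6 of them (for Mmp14, chr14:54437627-54437659, plus strand). In Mmp2, whose catalytic domain is interrupted by fibronectin-like repeats, it was exon 8 (chr8:92839279-92839311, plus strand). In all 8 Adamts genes of that level an intron split the codons, as in Adamts14, where they ran from exon 7 to exon 8 (chr10:61225465-61227123, minus strand). In Adam genes, counting the aligned stretch of Adam23, the stretch lay within 1 exon in 8 of 9, with Adam10 as the exception (exons 9 and 10). The other printed stretches lie, in GRCm38, at chr8:24990326-24990358 for Adam9 (exon 11, minus strand), chr9:70754296-70761585 for Adam10 (plus strand), chr12:21336732-21336764 for Adam17 (exon 11, minus strand) and chr7:133961158-133961190 for Adam12 (exon 11, minus strand). Those of Adamts4 (chr1:171253210-171253915, exons 3 and 4, plus strand) and Adamts5 (chr16:85878015-85887826, exons 2 and 3, minus strand) span an intron, and that of Adam23 lies in exon 13 (chr1:63547763-63547795, plus strand).

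The inhibitors had the highest summed level of the families in every line. The 4 Timp genes summed to 733 ± 64.5 TPM (SD, n = 3), against 272 ± 20.6 for 33 Adam, 165 ± 19.7 for 22 Mmp, 138 ± 25.5 for 19 Adamts and 8.08 ± 0.621 for 5 Adamtsl genes. By line, the Timp sum was 801, 673 and 726 TPM in lines 66, 67 and 72, and the Mmp sum was 147, 186 and 162 TPM. In TPM, the line with the highest Timp sum had the lowest Mmp sum. The line with the lowest Timp sum had the highest Mmp sum, but this match depended on the unit. In counts scaled to the library total without correction for length (CPM), Timp2 had 849, 634 and 579. Timp1 had 158, 156 and 182 CPM. The Timp sum in CPM was therefore lowest in line 72, while the Mmp sum stayed highest in line 67. In TPM, the Timp sum was 5.44, 3.61 and 4.47 times the Mmp sum, a log2 ratio of 2.15 ± 0.30. The Adam sum was above the Mmp sum in every line, by 1.73, 1.43 and 1.82 times. In bulk RNA, a level shared by all cells and a higher level in some of them cannot be told apart.

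**Figure D1:**
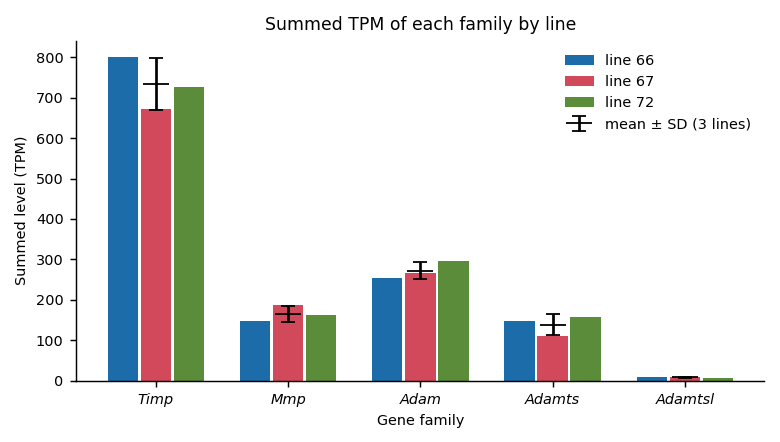
Summed level (TPM) of each gene family in lines 66, 67 and 72 (bars) with the mean and SD over the 3 lines (black). The Timp bars stand between 673 and 801 TPM, above every other family in each line.

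Few members carried these sums. Of the 83 members, 16 averaged at least 10 TPM (19.3%, against 38.0% of all protein-coding genes), and 13 lay between 1 and 10 TPM. Another 30 lay under 1 TPM, and 24 had at most 3 counts in every line (28.9%, against 25.9% of all protein-coding genes). A count of 3 is the most that a count of 0 allows, and this limit covers counting error only. Of these 24, 16 were at 0 in all lines (16 of 83 members, beside 3927 of 21856 protein-coding genes). Together, 29 members reached 1 TPM, a share of 34.9% beside 53.6% for all protein-coding genes. Ordered by mean level, the 16 most abundant members gave 15 neighbouring pairs, and in 3 of them every line of the higher gene was above every line of the lower one: Timp1 over Adam9, Adam9 over Mmp14, and Adam17 over Adam15. In the other 12 pairs the ranges of the lines overlapped. Within the lines, Mmp15 was above Mmp23 in 3 of 3, and the order of the remaining 11 pairs changed between lines.

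**Figure D2:**
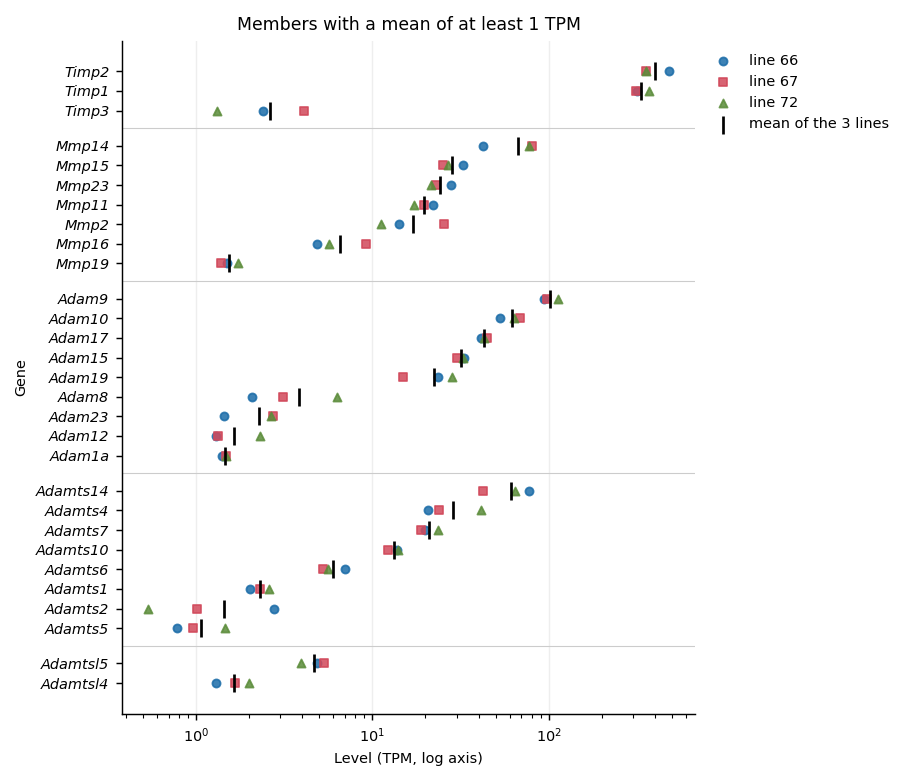
Level (TPM, log axis) of the 29 members averaging at least 1 TPM in lines 66, 67 and 72 (points), grouped by family, with the mean (black bar). Timp2 and Timp1 stand at 310.5 TPM or above in every line, and Adam9 is the next member at 94.3 to 112 TPM.

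Timp2, the inhibitor that binds Mmp14 and pro-Mmp2 at the cell surface, was measured at 481, 358 and 355 TPM in lines 66, 67 and 72 (398 ± 71.8). Timp1, a broad inhibitor of secreted Mmp enzymes, stood at 318, 310.5 and 369 TPM (332 ± 32.0). Line 66 was the highest for Timp2 and line 72 for Timp1, and the ranges of the genes overlapped. The ratio of Timp2 to Timp1 was 1.51, 1.15 and 0.962, so their order was turned in line 72. Without Timp2-202, which has an incomplete coding sequence, Timp2 was below Timp1 in all 3 lines, at 285, 210 and 193 TPM. Timp3, which binds to the matrix and also inhibits Adam17, was much lower, at 2.40, 4.12 and 1.32 TPM (2.61 ± 1.41), and Timp2 exceeded it by 201, 86.8 and 269 times. Timp4 had 8, 1 and 6 estimated counts. Timp2 made up 54.1% ± 5.59 and Timp1 45.6% ± 5.63 of the Timp sum.

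Timp1, Timp3 and Timp4 each lie inside a synapsin gene on the opposite strand. Timp1 (chrX:20870166-20874735, GRCm38, plus strand) lies within Syn1, Timp3 (chr10:86300372-86349506, plus strand) within Syn3, and Timp4 (chr6:115241892-115252205, minus strand) within Syn2. Syn1 was measured at 4.34, 4.21 and 2.99 TPM, far below Timp1. Syn2 had 0.521 ± 0.0709 TPM and Syn3 0.0948 ± 0.0390 TPM. Syn3 exons share 1733 of the 8144 exon bases of Timp3, and the library kit kept strand, but the strand setting used in counting is not given in the sources used here, so reads of an overlapping gene may be included. The same limit holds for Adam17, which shares 311 of 7154 exon bases with opposite-strand Iah1 (24.1 TPM). Timp2 (chr11:118301069-118355740, minus strand) has no such host.

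Mmp14, a transmembrane collagenase that also activates Mmp2, was the most abundant Mmp gene at 42.5, 80.8 and 77.0 TPM in lines 66, 67 and 72 (66.8 ± 21.1). It was 1.90-fold apart between its lowest line, 66, and its highest, 67. Mmp14 gave 28.9%, 43.3% and 47.5% of the Mmp sum. Mmp2, the gelatinase that Mmp14 activates, had 14.2, 25.6 and 11.2 TPM (17.0 ± 7.59) and was highest in the same line as Mmp14. The ratio of Mmp14 to Mmp2 nevertheless ranged from 2.995 in line 66 and 3.16 in line 67 to 6.87 in line 72. Timp2, the third partner of that activation, exceeded Mmp14 by 11.3, 4.43 and 4.61 times and Mmp2 by 33.9, 13.99 and 31.7 times.

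Mmp15, a second transmembrane member, was measured at 32.5, 25.2 and 26.8 TPM (28.2 ± 3.81). Mmp23, a small membrane-anchored member, had 27.9, 22.9 and 21.4 TPM (24.1 ± 3.43). Mmp11, which furin activates inside the cell, had 21.9, 19.6 and 17.2 TPM (19.5 ± 2.39). All 3 were highest in line 66, in which Mmp14 was lowest, but the log2 ratio of Mmp11 in line 66 over the mean of the others (0.26) was close to the median of its chromosome 10 (0.23). Mmp16, another transmembrane member, had 4.87, 9.18 and 5.68 TPM, and Mmp19 had 1.51, 1.38 and 1.72 TPM. Exons of Mmp19 share 789 of 3533 bases with Tmem198b (22.02 TPM) and those of Mmp11 155 of 2778 with Chchd10 (58.6 TPM), both on the opposite strand, with the same limit as for Timp3 and Syn3.

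The other 15 Mmp members were under 1 TPM in the mean. Mmp9, the second gelatinase and a gene known from inflamed dystrophic muscle, had 4, 6 and 6 counts. The 9 Mmp members of the cluster on chromosome 9 (chr9:7272514-7699585, 427 kb), which holds Mmp3, Mmp7, Mmp8, Mmp10, Mmp12, Mmp13, Mmp20, Mmp27 and Mmp1b, had 33.04, 29.7 and 20.6 counts in all. The highest single value in the cluster was 21 counts, for Mmp10 in line 67, and 4 of the 9 genes were at 0 in every line. Over all protein-coding genes, 3927 of 21856 were at 0. The 5 Mmp members of at least 10 TPM lie outside that cluster, on chromosomes 4, 8, 10 and 14.

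The Adam sum was 255, 266 and 295 TPM in lines 66, 67 and 72, and members whose coding sequence holds the zinc motif made up 98.0%, 98.5% and 98.4% of it (98.3% ± 0.245). Adam9 was the most abundant, at 94.3, 98.0 and 112 TPM (102 ± 9.44), and gave 37.3% ± 0.662 of the Adam sum. Adam10, the sheddase that cuts Notch receptors after ligand binding, had 52.8, 68.5 and 63.6 TPM (61.6 ± 8.02). Adam17, which releases TNF and ligands of the EGF receptor, had 41.0, 44.6 and 43.1 TPM (42.9 ± 1.81). Of this, its main transcript Adam17-201 (827 residues) had 27.8, 29.2 and 32.3 TPM. Adam10 was above Adam17 in every line, by 1.29, 1.53 and 1.47 times. From lowest to highest line, Adam10 was 1.30-fold apart and Adam17 1.09-fold.

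Adam15 stood at 33.1, 30.04 and 32.8 TPM (32.0 ± 1.68). Adam19, known as meltrin beta, had 23.6, 14.9 and 28.4 TPM (22.3 ± 6.87), lowest in line 67. Adam12, known as meltrin alpha and named for myoblast fusion, had 1.30, 1.33 and 2.31 TPM (1.65 ± 0.577), so that Adam9 exceeded it by 72.7, 73.7 and 48.5 times. Adam8, best known from leukocytes, had 2.07, 3.13 and 6.30 TPM, highest in line 72. Of the immune markers, Laptm5 was highest in line 66 (25.5, 1.77 and 10.9 TPM), where Adam8 was lowest, while Ptprc (1, 3 and 7 counts) and Itgam (13.1, 25.8 and 55.8 counts) ran in the same order of lines as Adam8, and Cd68 was highest in line 72 (3.90, 2.92 and 4.23 TPM). Csf1r had 5 to 8 counts and Adgre1 none, and the part of such cells in the Adam8 values was not tested. Adam23, the adhesion protein without the zinc residues, had 1.44, 2.74 and 2.65 TPM. It was the member without the motif that reached 1 TPM in this family.

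Of the 33 Adam members, 15 had at most 3 counts in every line (45.5%, against 25.9% of all protein-coding genes). At 0 in every line were 12 of the 33, beside 3927 of 21856 protein-coding genes. These 15 genes, many of them known from testis, summed to 2, 3.004 and 5.603 counts. Chromosome 8 carries 13 Adam members, of which 8 were at 0, namely Adam20, Adam24, Adam25, Adam26a, Adam26b, Adam29, Adam34 and Adam39, while Adam9 on the same chromosome had 14609 to 16196 counts. Adam1a, a sperm gene, was listed at 1.40, 1.48 and 1.48 TPM, but 4779 of its 7508 exon bases are shared with Gm42878 and 1805 with Mapkapk5 on the same strand, so its reads could not be assigned to it with certainty.

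The most abundant Adamts gene was Adamts14, which removes the aminopropeptide of fibrillar procollagens, at 77.6, 42.3 and 64.4 TPM in lines 66, 67 and 72 (61.4 ± 17.9). Adamts2, with the same substrate, was measured at 2.76, 1.01 and 0.536 TPM (1.43 ± 1.17). Adamts14 exceeded Adamts2 by 28.1, 41.9 and 120 times. The ratio was larger on protein-coding transcripts alone, where Adamts2 had 1.38, 0.534 and 0.337 TPM and Adamts14 was unchanged. Line 66 was the highest for both genes, but Adamts14 was lowest in line 67 and Adamts2 in line 72. Adamts3, the remaining procollagen N-proteinase, was under 1 TPM (0.374 ± 0.140).

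Adamts4, which cuts versican and aggrecan, had 20.6, 24.0 and 41.1 TPM (28.6 ± 10.98), and line 72 stood apart from the other lines. Its relatives with the same substrates were lower, with 2.02, 2.29 and 2.61 TPM for Adamts1 and 0.779, 0.963 and 1.47 TPM for Adamts5. All 3 genes were lowest in line 66 and highest in line 72. Of the 29 members of at least 1 TPM, 13 were lowest in line 66 and 12 were highest in line 72. The median log2 ratio of a line over the others was -0.12 in line 66 on both their chromosomes, 1 and 16. In line 72 it was 0.10 and 0.12. Adamts4 exceeded Adamts5 by 26.5, 24.9 and 28.1 times, a log2 ratio of 4.73 ± 0.09. Adamts7, which cuts cartilage oligomeric matrix protein, had 19.96, 19.0 and 23.6 TPM (20.8 ± 2.42). Adamts10, a fibrillin-binding member, had 13.7, 12.3 and 13.9 TPM (13.3 ± 0.904), and its close relative Adamts6 had 7.04, 5.25 and 5.604 TPM. Among the Adamtsl genes, Adamtsl5 had 4.83, 5.32 and 3.92 TPM and Adamtsl4 had 1.30, 1.65 and 2.01 TPM, and the other 3 were under 1 TPM.

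The share of members far apart between lines was set beside that of all genes. At a mean level of 1 TPM or more, 4 of 29 members (13.8%) were over 2-fold apart between their highest and lowest line, against 7.19% of all 12528 genes at that level. At 10 TPM or more, it was 1 of 16 members (6.25%), against 2.47% of 8428 genes. The median fold from lowest to highest line was 1.35 for members and 1.22 for all genes at the lower limit, and 1.29 and 1.18 at the higher one. With counts as small as 4 and 1, these shares are a description of the members and were not tested.

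The 4 members were Adamts2 (5.15-fold, highest in line 66), Timp3 (3.12-fold, highest in line 67), Adam8 (3.04-fold, highest in line 72) and Mmp2 (2.28-fold, highest in line 67). Mmp2 and Timp3 were both highest in line 67 and lowest in line 72. Adamts2 reached a mean of 1 TPM through line 66, in which it was high, and averaged 0.772 TPM without it. Leaving out line 66 removed Adamts2 from the 4, leaving out line 67 removed Mmp2 and Timp3, and leaving out line 72 left only Adamts2. Adamts4 stood just under the limit at 1.99-fold, followed by Adam19 at 1.91-fold, Adam23 at 1.91-fold and Mmp14 at 1.90-fold.

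Whole chromosomes were shifted in some lines, and several members of those chromosomes were read beside the shift. The log2 ratio of line 66 over the mean of the others had a median of 0.27 over 699 genes of chromosome 11 and of 0.23 over 427 genes of chromosome 10, each gene averaging at least 10 TPM. In line 72 the median was 0.22 over 398 genes of chromosome 6. On chromosome 11, the same ratio in line 66 was 0.43 for Timp2, 0.13 for Adam19 and 1.84 for Adamts2. With each line centred on the median of the chromosome, Timp2 was 1.15-fold apart between lines in place of 1.35-fold, while Adamts2 was 4.38-fold apart. On chromosome 10, Adamts14 was at 0.54 in line 66 and was 1.58-fold apart after centring in place of 1.84-fold. Timp3, also on chromosome 10, was at -0.18 in line 66 and at 1.15 in line 67, where the chromosome stood at -0.11. Centring kept the same 4 members over 2-fold.

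**Figure D3:**
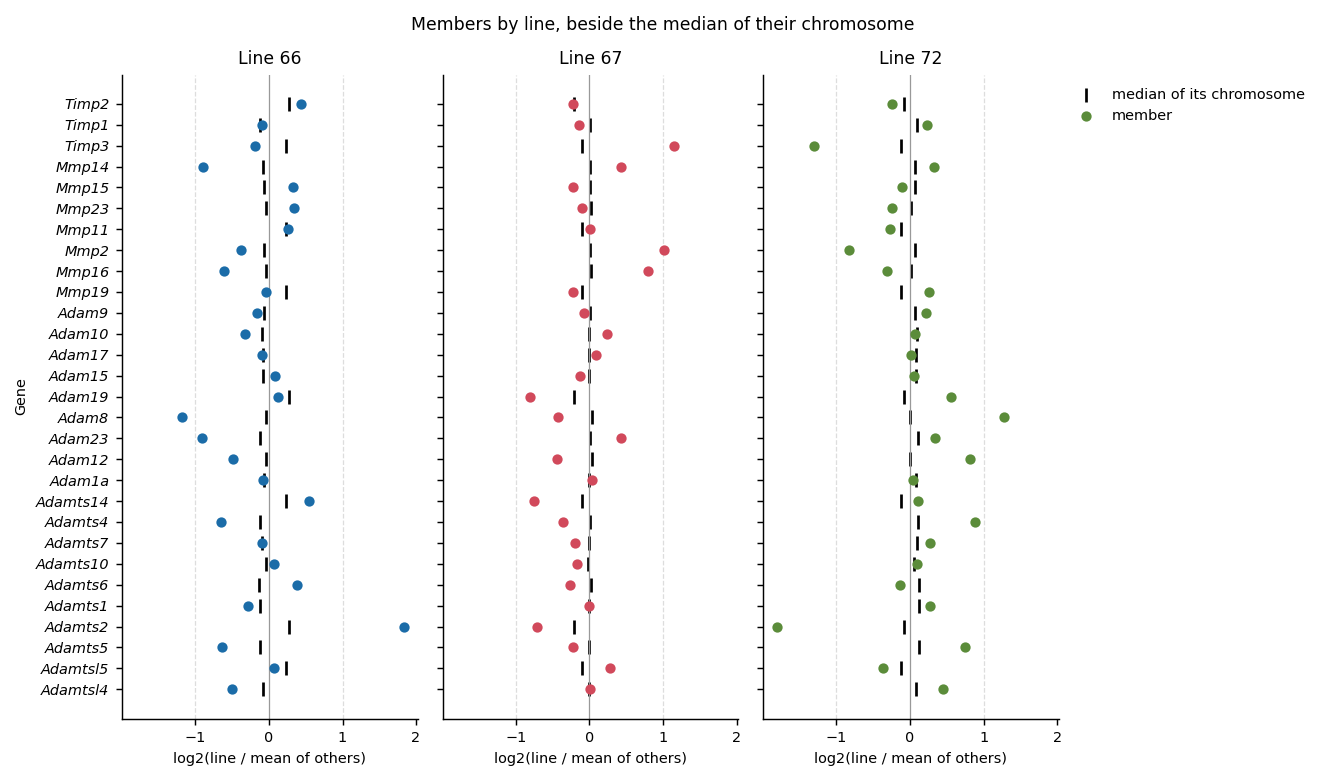
Log2 ratio of each line over the mean of the others for the 29 members averaging at least 1 TPM (points), beside the median of genes averaging at least 10 TPM on the same chromosome (black bars); dashed lines mark a ratio of 2-fold. Adamts2 in line 66 (1.84) lies far outside its chromosome median (0.27), while Timp2 (0.43) lies close to it.

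The files list transcripts, so the share of each gene's TPM that came from transcripts annotated as protein-coding could be read. These shares are estimates, since reads that fit several transcripts of a gene are split between them. The transcript with the highest TPM was annotated as protein-coding in 27 of 29 members. Over the 29 members, the median protein-coding share was 81.0%. It was 100% in Timp1, Timp2, Adamts14 and Adamts4, 99.3% in Adam10 and Mmp2, and under 50% in 4 members.

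For Timp2, both transcripts are annotated as protein-coding, but Timp2-202 (718 bases) has an incomplete coding sequence and took 42.6% ± 2.71 of the TPM with 8.98% of the counts. Timp2-201, which encodes the whole inhibitor of 220 residues, was at 285, 210 and 193 TPM. Counted by complete transcripts alone, Timp1 was therefore above Timp2 in every line. For Adam9, Adam9-204 (863 residues) gave 54.5% ± 4.57 and Adam9-201 (841 residues) 41.9% ± 2.35 of the TPM. Neither form held most of the TPM in all lines by a wide margin.

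Adam8 differed between lines in its transcripts as well. Adam8-201 (825 residues) gave 33.9%, 58.0% and 75.5% of its TPM in lines 66, 67 and 72, and Adam8-202 (826 residues) gave 37.5%, 18.05% and 6.43%. Line 72, with the most Adam8, thus had the highest share of Adam8-201.

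Transcripts that do not encode a whole protease took a large part of some members. In Adamts10, protein-coding transcripts gave 26.2% ± 2.07 of the TPM, retained introns 42.8% ± 2.18 and transcripts marked for nonsense-mediated decay 30.2% ± 2.14. Adamts10-201, which encodes 1104 residues and the zinc motif, had 0.862, 0.235 and 1.68 TPM in lines 66, 67 and 72. Its mean was 0.924 TPM of the 13.3 TPM of the gene. In Mmp23, 45.1% ± 3.14 came from retained introns, and protein-coding transcripts gave 54.9% of the TPM and 75.0% of the counts. In Adam15, protein-coding transcripts gave 56.4% ± 2.70 of the TPM, or 18.1 of the 32.0 TPM of the gene, and 88.9% of the counts, and Adam15-212, a processed transcript of 418 bases, gave 26.8% of the TPM with 2.95% of the counts. Adamts2 averaged 0.749 TPM and Adamts7 13.7 TPM over protein-coding transcripts alone. In Mmp11, Mmp11-203, a fragment of 335 bases marked for nonsense-mediated decay, gave 26.4% ± 7.78 of the TPM with 2.28% of the counts. Nonsense-mediated decay transcripts also took 45.5% ± 0.990 of Adamts6, 36.6% ± 4.72 of Mmp16 and 16.7% ± 2.55 of Adam17. Another 10.5% ± 6.07 of the Adam17 TPM came from Adam17-209, which encodes 123 residues. The other 3 members under 50% were Adam23 (24.4%), Adamtsl5 (29.3%) and Adamtsl4 (37.0%), all of low level. Read from counts, the protein-coding share was 28.3% for Adam23, 12.5% for Adamtsl5 and 95.1% for Adamtsl4, in which Adamtsl4-205, a fragment of 288 bases, took 43.9% of the TPM with 2.51% of the counts.

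**Figure D4:**
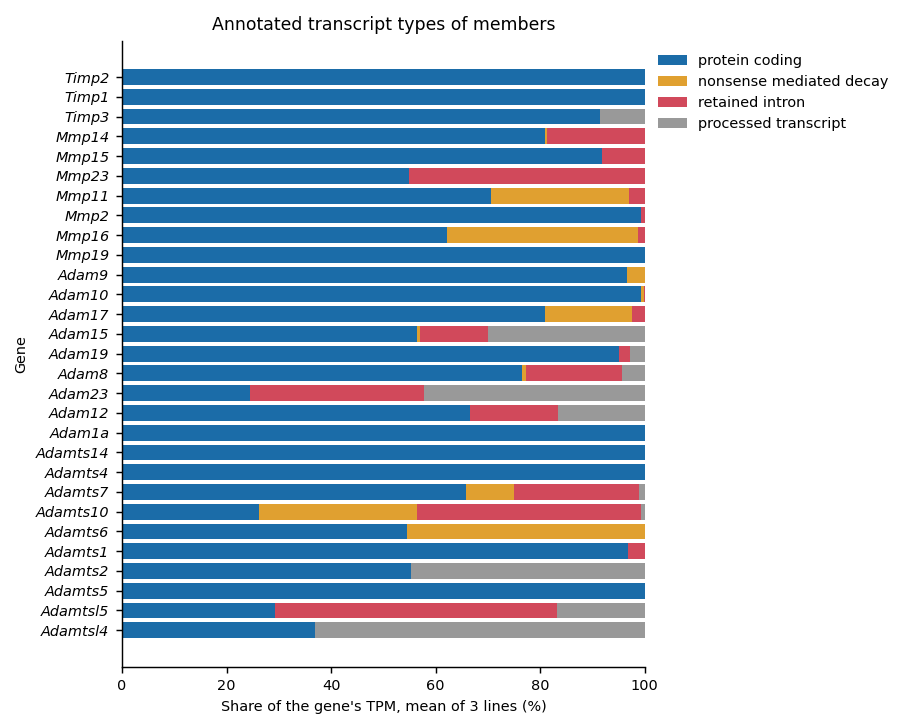
Share of the TPM of each of the 29 members (mean of 3 lines) that came from transcripts annotated as protein-coding, marked for nonsense-mediated decay, with a retained intron or processed. Timp1, Timp2, Adamts14 and Adamts4 are protein-coding throughout, while Adamts10 reaches 26.2%.

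Partner genes measured beside the members were convertases, inhibitors and clearance genes, sheddase partners and the plasminogen system. Procollagen processing genes, hyalectan substrates, glycosylation enzymes and the synapsin hosts were also taken. The list held 42 genes. Of these, 30 had at least 1 TPM, 18 had at least 10 TPM and 5 of the 30 were over 2-fold apart between lines, beside 53.6% of all protein-coding genes at 1 TPM or more, 38.0% at 10 TPM or more and 7.19% of genes of that level over 2-fold apart. Furin, the convertase that activates many members, had 102, 111 and 107 TPM. Pcsk7 had 12.8 ± 0.696 TPM. Pcsk1, a convertase of endocrine cells, was at 16.5, 2.32 and 0.679 TPM in lines 66, 67 and 72. At 24.3-fold, this was the widest fold among the 30 partner genes of at least 1 TPM. Pcsk6 had 2.94, 3.02 and 6.63 TPM, while Pcsk2 and Pcsk4 were at 1.95 ± 0.243 and 1.66 ± 0.523 TPM and Pcsk5 at 0.0648 ± 0.0478 TPM.

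Of 9 genes for tetraspanins, rhomboid-like proteins and Frmd8, which are known to carry Adam10 and Adam17 through the cell, 8 had at least 1 TPM, beside 53.6% of all protein-coding genes. Tspan5, a carrier of Adam10, had 76.5, 70.8 and 53.7 TPM. Tspan14 and Tspan17 had 24.1 ± 2.62 and 22.3 ± 4.11 TPM, Tspan33 had 9.99 ± 1.44, Tspan15 had 1.81 ± 0.0952, and Tspan10 had at most 3 counts. Of the partners of Adam17, Rhbdf1 (25.3 ± 3.49 TPM) was above Rhbdf2 (5.57 ± 1.44 TPM) in every line, and Frmd8 had 31.3 ± 1.94 TPM. Outside the Timp family, the membrane-anchored inhibitor Reck was at 1.34 ± 0.266 TPM, Tfpi2 at 1.29 ± 0.455 TPM, and A2m at 0 counts in all lines. Lrp1, a receptor that takes up proteases bound to inhibitors, had 79.9 ± 9.75 TPM. Bsg, which is known to induce Mmp genes in neighbouring cells, had 541, 671 and 454 TPM.

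In the plasminogen system, which can activate several Mmp precursors, the protease Plau had 138, 115 and 119 TPM and its receptor Plaur 54.4 ± 7.25 TPM. The other activator, Plat, had 3.48, 5.99 and 7.55 TPM. Plg, the plasminogen precursor, had 0, 0 and 6 counts. The inhibitor Serpine2 had 235, 269 and 306 TPM. Serpinb2 was at 20.5, 54.3 and 22.4 TPM, with line 67 above the other lines, and Serpinf2 was at 0.109 ± 0.0141 TPM.

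Genes that act on the same substrates as the Adamts members were also read. At the other end of procollagen, Bmp1 had 48.7, 40.0 and 54.5 TPM, and its enhancers Pcolce and Pcolce2 had 117 ± 24.5 TPM and 50.8, 31.1 and 73.0 TPM. Tll1 and Tll2 were at 0.112 ± 0.0271 and 0.0266 ± 0.00573 TPM. Adamts14, Bmp1 and Pcolce2 were all lowest in line 67, and Pcolce was highest there. Of the 4 hyalectans that Adamts4 can cut, versican (Vcan) had 39.6, 44.1 and 58.7 TPM and ran in the same order of lines as Adamts4. The median log2 ratio over its chromosome 13 ran in that order too (-0.14, 0.02 and 0.13). A link between Vcan and Adamts4 was not tested. Acan had 1, 0 and 0 counts, Bcan 4, 4 and 2, and Ncan was at 0.0292 ± 0.00643 TPM. Pofut2, which adds fucose to thrombospondin repeats, had 54.5 ± 7.23 TPM, and B3glct, which extends it with glucose, had 7.86 ± 1.13 TPM.

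**Figure D5:**
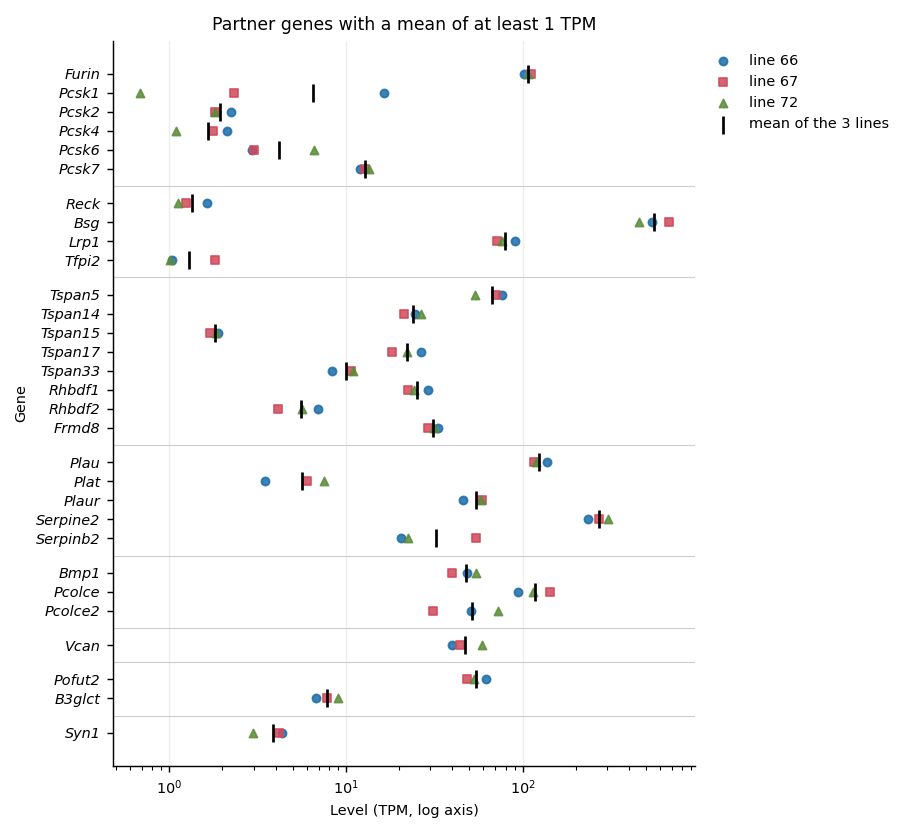
Level (TPM, log axis) of the 30 partner genes averaging at least 1 TPM in lines 66, 67 and 72 (points) with the mean (black bar). Groups from the top are convertases, inhibitors and clearance (drawn with the inducer Bsg), sheddase partners, plasminogen system, procollagen processing, hyalectans, glycosylation and the synapsin host. Bsg, Serpine2, Plau, Pcolce and Furin lie between 107 and 555 TPM in the mean, and Pcsk1 has the widest spread.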

How the data were processed

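Stranded, poly-A-enriched libraries of 3 edited myoblast lines were used as 1 group, with the line as replicate. The authors deposited, for each of 121798 transcripts, an estimated count with no further normalization, and TPM values, scaled by transcript length and library total. The submitters' processing notes name bcl2fastq 2.20, fastp 0.20, kallisto 0.46.1 and the build GRCm39. The annotation release and strand setting are not given in the sources used here. Transcripts were matched by identifier to GENCODE M21, whose coordinates are on GRCm38; 1112 had no match (0.493% to 0.535% of counts) and were left out. Values were summed per gene.

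The members and lists were chosen with earlier results of these data known. Genes named were the 4 Timp genes, members with a mean of at least 10 TPM, members of at least 1 TPM over 2-fold apart, a few known muscle or matrix members (among them Mmp9, Adam12, Adamts1 and Adamts5) and the 42 partner genes. A further gene of the planned partner lists is not reported here. Other members are given by range and count, or as part of a family or gene cluster, and some single values of members between 1 and 10 TPM were added after they were seen. A gene was called over 2-fold apart by its highest over its lowest TPM, and a member with at most 3 counts in every line was called not detectable at this depth. The catalytic share had been planned from a protein table and was read instead from translated coding sequences of GENCODE M21. Reads shared with other genes could not be recovered, and 14 of 29 members of at least 1 TPM had counts within 0.05 of whole numbers in every line. Exons of 10 of 29 overlapped those of another gene. Alternatives were CPM, coding transcripts alone, median-of-ratios scaling, other thresholds and each line left out. Python 3.11.15 was used with pandas 2.3.3, numpy 2.4.6, biopython 1.88 and matplotlib 3.10.9.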

Additional observations from a re-analysis of the deposited data

How the results depend on the processing

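No paired analysis was possible because all libraries belong to a single group. CPM is not divided by length and so gave other levels: 860.4 for Timp, 316 for Mmp, 628 for Adam, 485 for Adamts and 13.9 for Adamtsl, with a log2 ratio of Timp over Mmp of 1.44 and a catalytic share of Adam of 98.8%. With protein-coding transcripts alone the sums were 131 TPM for Mmp, 241 for Adam and 3.17 for Adamtsl, the log2 ratio was 2.49 and the catalytic share 99.1%. With complete coding transcripts alone, an alternative added after the data were seen, they were 564 TPM for Timp, 128 for Mmp, 239.9 for Adam and 2.78 for Adamtsl, and the log2 ratio was 2.14. In every one of these settings and with each line left out, the Timp sum stayed above the Mmp sum. The count of members over 2-fold apart was 1 with a mean of at least 10 TPM, 25 of 59 with any member above 3 counts in a line (where 27.8% of all genes passed), and 13 of 29 at a fold of 1.5 (19.7% of all genes). Without single lines it ranged from 1 to 3 (beside 3.38%, 4.40% and 3.89% of all genes without lines 66, 67 and 72), so lines 66, 67 and 72 each decide part of it. CPM gave 6 of 29 members, adding Adam12 and Adam23 (6.94% of all genes). Without single lines, the log2 ratio ranged from 2.01 to 2.30. Of 302 further single values, 61 moved by more than the SD over lines, 29 of them levels in CPM and 21 transcript shares read from counts. The lines are single libraries, so culture, chimera and library preparation cannot be told apart, and no level was compared with another condition.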
